A study of Mus musculus with 60 samples.

Results

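The change from 5 to 10 days in vitro (DIV5 to DIV10) was followed in mouse cortical neurons given paxillin siRNA and no BDNF. The libraries were picked by their labels, with no measured value in the rule, as the 4 paxillin siRNA libraries at DIV10 (cultures 1, 2, 10 and 11) and the 6 paxillin siRNA libraries at DIV5 (cultures 1, 2, 3, 4, 10 and 11), which made 10 of the 60 samples of the series. The study asked how paxillin, a protein of integrin adhesions, bears on splicing as neurons develop. Neurons came from the cerebral cortex of wild-type (WT) mouse embryos at embryonic day 18 according to the labels, while the study's text also names an earlier embryonic day for mouse cultures, and were grown in neurobasal medium with Gem21. Paxillin siRNA, a pool of 2 siRNAs, or a scrambled siRNA (SC siRNA) was added at DIV2, and BDNF, a neurotrophin, was added at 20 ng/ml on the same day in other cultures. The comparison groups used below were SC siRNA at DIV5 (4 libraries, cultures 1 to 4) and DIV10 (3 libraries, cultures 1, 3 and 6), paxillin siRNA at DIV3 (5 libraries), and paxillin siRNA with BDNF at DIV5 (5 libraries) and DIV10 (2 libraries, cultures 10 and 11). All of them share the genotype, tissue, medium and mRNA library kit, and an siRNA knocks a transcript down for a limited time in whichever cells take it up.

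Paxillin links integrins, the cell's receptors for the surrounding matrix, to the actin skeleton, and it can also shuttle to the nucleus. Cortical neurons in culture first extend axons under the control of tubulin-binding and growth-cone proteins, and later build synapses, ion channel clusters and an axon initial segment. Cholesterol is made in the cell from acetyl-CoA through the mevalonate pathway, whose genes are switched on together by the transcription factor SREBP2 when sterols run low. Dissociated cortex also carries dividing progenitors, interneurons, astrocytes, oligodendrocyte precursors and microglia, whose share of a culture can move with time and medium.

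Values are TPM, the share of a gene's transcripts per 1000000 transcripts after correction for gene length, so they hold no sequencing depth and a level is relative to all other RNA. Between 21544 and 23098 genes were above 0 in each of the 10 libraries, and no library was identical to another. The spread between libraries was wider at DIV10, with a median SD over genes of 0.36 on the log2 scale against 0.24 at DIV5. Of 14250 genes tested with limma on log2(TPM + 1), 6732 changed from DIV5 to DIV10 at an adjusted p under 0.05, namely 2318 that rose (16.3%) and 4414 that fell (31%). The median gene was at a log2 change of -0.15, and after rescaling by median ratios it was at 0.00, with 23.2% of genes rising and 23.1% falling, so that the share of rises among the changed genes went from 34.4% to 50.1%. Changes below should be read against that shift, and the rescaled count of each list is given with its first count where it differs. In bulk samples fewer cells of a type and less RNA per cell cannot be told apart. The limma p-values use 1 spread per gene, shared by all groups of the 48 cortical libraries, which only their culture numbers mark as separate. With the spread estimated from the 10 libraries compared alone, 5110 genes changed. Each difference from the SC siRNA change given below rests on the shared spread. None passed when the spread was estimated from the 4 groups of that contrast alone. Cultures 1 and 2 and cultures 10 and 11 are set side by side below because their values often lay apart, but the labels do not define them as groups, and the difference between the pairs was not tested.

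Pxn (chr5:115491970-115555987, GRCm38.p6), the gene targeted by the siRNA, was at 8.43 TPM in the lowest, 9.11 in the median and 9.83 in the highest DIV5 library. At DIV10 it was at 18.8, 13.4, 13.2 and 11.5 TPM in cultures 1, 2, 10 and 11. Every DIV10 library was thus above every DIV5 library, as was the case for 9.24% of genes tested (18.3% had every DIV10 library below). Pxn rose by 0.56 ± 0.18 (SE) on the log2 scale, or 1.48-fold (limma adjusted p = 0.0084, and p = 0.00476 in a 2-sided exact permutation test, the smallest that the 210 arrangements can give). Without culture 1 at DIV10 the log2 change was 0.43 and did not pass the threshold (limma adjusted p = 0.0694). In the libraries labelled SC siRNA, Pxn averaged 15.5 ± 3.45 TPM (SD, n = 4) at DIV5 and lay at 8.99, 9.93 and 19.9 TPM at DIV10. The DIV10 libraries labelled paxillin siRNA therefore overlapped the SC siRNA libraries of that day, and at DIV10 the label describes what the cultures were given and not a lower Pxn level. The SC siRNA change was -0.30 (adjusted p = 0.312), and the difference between the changes, 0.86 ± 0.27, came to an adjusted p of 0.0509, or 0.0419 after rescaling.

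The genes of cholesterol synthesis fell together. All 19 genes of the list, which held enzymes such as Hmgcs1, Sqle and Cyp51 and the sterol-regulated Insig1, Stard4 and Srebf2, passed the threshold downward, against 31% of all genes, with a median log2 change of -2.47 (-2.30 after rescaling). Their summed level was between 3964.6 and 7416 TPM in the DIV5 libraries and was 1068, 1009, 624 and 583 TPM at DIV10 in cultures 1, 2, 10 and 11. For 18 of the 19 genes every DIV10 library was below every DIV5 library, and Insig1 was the exception.

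Hmgcs1, the synthase that makes HMG-CoA, was at 1109, 1468 and 1560 TPM in the lowest, median and highest DIV5 library and at 206, 260.4, 108 and 96.7 TPM in cultures 1, 2, 10 and 11 at DIV10. All 4 late libraries were far under the early ones, and cultures 10 and 11 were the lowest. It fell by 3.18 ± 0.37 on the log2 scale, 9.06-fold (limma adjusted p = 2.14e-08). Sqle, the epoxidase of squalene, was between 207 and 595 TPM at DIV5 and between 32.5 and 56 TPM at DIV10, and fell by 3.02 ± 0.29 (adjusted p = 3.9e-10). Among the mevalonate and isoprenoid enzymes, Mvk, Mvd, Idi1, Fdps and Fdft1 fell by 1.85, 2.47, 2.75, 2.87 and 2.11. The sterol ring enzymes Lss, Cyp51, Msmo1, Nsdhl, Sc5d and Dhcr7 fell by 1.86, 3.12, 2.45, 2.30, 1.82 and 2.31.

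The sterol-regulated genes outside the synthetic chain moved the same way. Srebf2, which encodes SREBP2, was at 89.7, 139.5 and 189 TPM in the lowest, median and highest DIV5 library and at 45.8, 51.2, 27.5 and 33.3 TPM at DIV10, and fell by 1.81 ± 0.19 (limma adjusted p = 3.72e-09). Its DIV10 values were lower in cultures 10 and 11 than in cultures 1 and 2, without overlap with DIV5. Insig1, the protein that holds the SREBP machinery in the endoplasmic reticulum, was at 250.3, 295 and 543 TPM at DIV5 and at 309, 115, 30 and 34.1 TPM at DIV10. Culture 1 was inside the DIV5 range and the others were under it, and the fall over all libraries was 2.03 ± 0.38 (adjusted p = 4.59e-05). Stard4, a carrier of sterol between membranes, fell by 2.61 ± 0.42 (adjusted p = 4.91e-06).

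**Figure D1:**
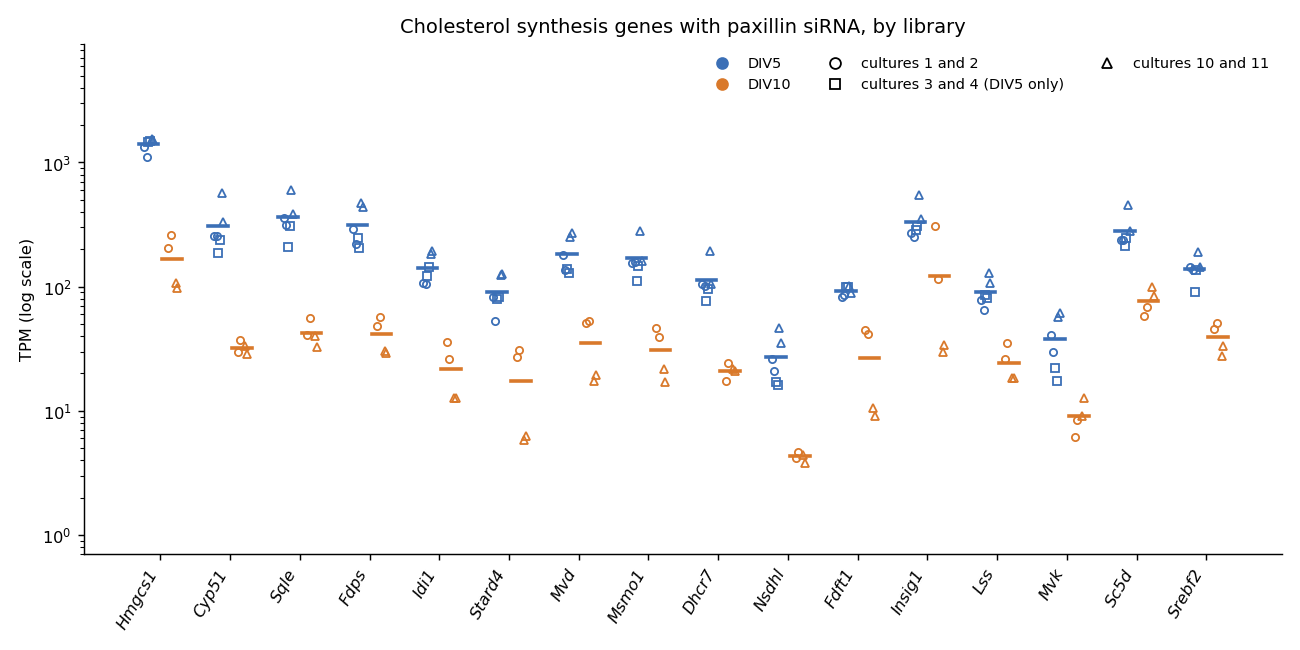
TPM on a log axis of 16 of the 19 cholesterol synthesis genes in each of the 6 DIV5 (blue) and 4 DIV10 (orange) paxillin siRNA libraries, with bars at the group means and marker shapes for culture pairs. The orange points lie under the blue points for every gene drawn except Insig1, where culture 1 at DIV10 (309 TPM) is among the DIV5 values.

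The promoters of these genes were looked at because the genes moved together and their start regions are known for shared sterol and NF-Y motifs, and 4 are shown. RefSeq windows (GRCm38.p6) were matched by symbol for 12 of the 19 genes. The 200 bases before the start are printed 5′ to 3′ on the gene's strand, for Mvk at chr5:114444069-114444268 (plus strand), Msmo1 at chr8:64733579-64733778 (minus strand), Hmgcs1 at chr13:119690151-119690350 (plus strand) and Srebf2 at chr15:82147069-82147268 (plus strand). Capitals mark the letters CCAAT or their reverse complement ATTGG, the letters TCACNCCAC and the letters ATCACCCC. The windows printed are those with the most copies of CCAAT (Mvk, Msmo1 and Hmgcs1) and those with TCACNCCAC or ATCACCCC (Hmgcs1 and Srebf2). Windows not printed hold 0 to 2 copies of CCAAT and neither of the other motifs.
Mvk: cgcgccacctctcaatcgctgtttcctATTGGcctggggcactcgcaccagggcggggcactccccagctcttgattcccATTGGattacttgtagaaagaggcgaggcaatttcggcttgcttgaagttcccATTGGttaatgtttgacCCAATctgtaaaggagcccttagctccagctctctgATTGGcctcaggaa
Msmo1: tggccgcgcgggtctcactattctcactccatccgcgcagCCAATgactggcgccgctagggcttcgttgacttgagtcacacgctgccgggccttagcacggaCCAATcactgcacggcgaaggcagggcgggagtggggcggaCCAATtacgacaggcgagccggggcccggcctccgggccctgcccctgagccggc
Hmgcs1: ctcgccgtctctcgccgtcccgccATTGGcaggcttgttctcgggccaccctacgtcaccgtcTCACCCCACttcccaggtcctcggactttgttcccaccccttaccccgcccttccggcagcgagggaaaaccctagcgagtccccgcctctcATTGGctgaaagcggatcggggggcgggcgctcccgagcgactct
Srebf2: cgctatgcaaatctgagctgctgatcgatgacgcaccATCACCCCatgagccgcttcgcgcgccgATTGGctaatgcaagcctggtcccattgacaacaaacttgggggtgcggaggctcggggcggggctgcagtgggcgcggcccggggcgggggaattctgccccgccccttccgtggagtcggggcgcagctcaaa
Searched on both strands over 250 bases before the start, CCAAT stood in 12 of the 14 windows of these genes and in 33.8% of 32851 RefSeq windows of that length. More than 1 copy stood in 7 of the 14 windows, against 10.1% of all windows, and the Mvk window above holds 5. TCACNCCAC was found in the Hmgcs1 window alone of the 14 (1.05% of all windows) and ATCACCCC in the Srebf2 window alone (0.654%). TCACNCCAC and ATCACCCC can share letters and do not in these windows, and a match is a description of these letters and not a binding site. Msmo1, a sterol oxidase with 3 copies of CCAAT, was at 111, 155 and 282 TPM at DIV5 and at 46.8, 39.1, 21.7 and 17 TPM at DIV10. Mvk, the kinase of mevalonate, was at 17.5, 35.2 and 61.1 TPM and then at 6.2, 8.46, 9.03 and 12.7 TPM. Neither gene had a DIV10 library inside its DIV5 range.

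The same genes were looked at under SC siRNA, where 5.75% of genes tested rose and 19.2% fell from DIV5 to DIV10. Of the 19 cholesterol genes 6 fell there, with a median log2 change of -0.78, and their summed level went from between 2141 and 4511 TPM at DIV5 to between 1630 and 1903 TPM at DIV10. The change with paxillin siRNA was lower than that with SC siRNA for 14 of the 19 at an adjusted p under 0.05, against 2.16% of all genes tested, while 3.6% were higher. The median difference was -1.77. For Msmo1 the means with SC siRNA were 78.1 TPM at DIV5 and 60.1 TPM at DIV10, and the difference between the changes was -2.07 ± 0.46 (limma adjusted p = 0.0116). For Srebf2 they were 130.5 and 88.9 TPM, with a difference of -1.29 ± 0.30 (adjusted p = 0.0152). Idi1, Stard4, Mvd, Fdft1 and Mvk had differences between -1.09 and -1.79 and did not pass. The count of 14 depended on the control libraries, and was 4 without culture 4 of SC siRNA at DIV5, 6 without its culture 2 or without culture 1 or 6 of SC siRNA at DIV10, and 0 when the spread was estimated from the 4 groups alone. The SC siRNA libraries also held more astrocyte RNA at the start, with 14 astrocyte markers summing to between 1715 and 9461 TPM at DIV5 and between 2538 and 10216 TPM at DIV10, against between 1423 and 2461 TPM with paxillin siRNA at DIV5, and the part of this in the differences was not tested.

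**Figure D2:**
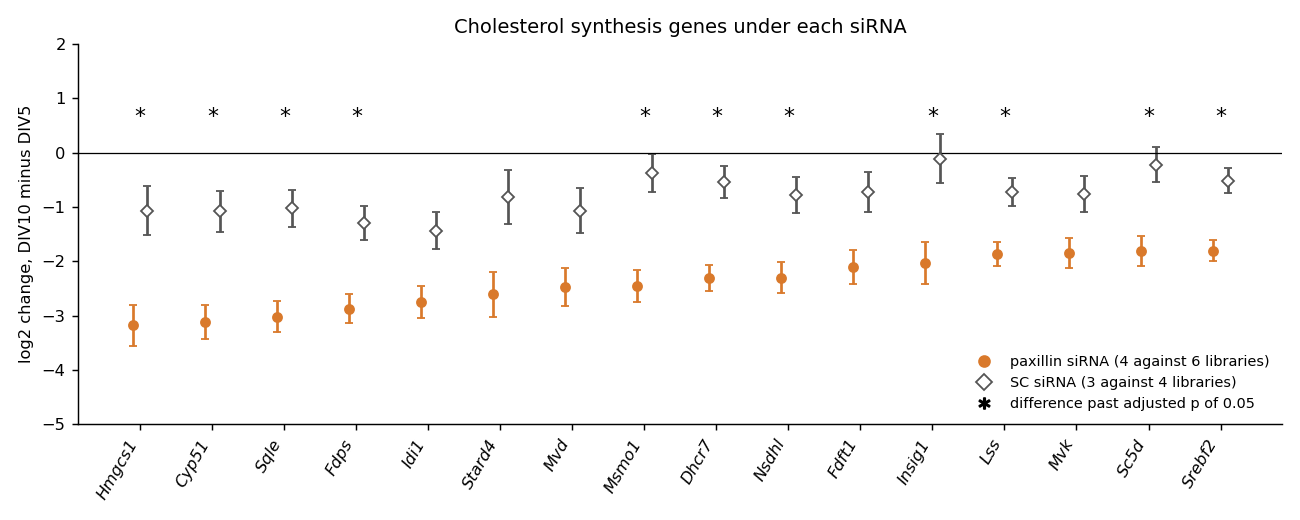
Fitted log2 change from DIV5 to DIV10 (points, with bars of 1 SE) of 16 of the 19 cholesterol synthesis genes with paxillin siRNA (filled, 4 against 6 libraries) and SC siRNA (open, 3 against 4 libraries). Each paxillin siRNA point lies under the SC siRNA point, and the asterisks mark the 11 genes drawn whose difference had an adjusted p under 0.05.

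Within the paxillin siRNA libraries the fall was present in both culture pairs. In a fit of cultures 1 and 2 alone 17 of the 19 fell (29.7% of all genes fell and 14.3% rose there), with a median of -2.12. With cultures 10 and 11 alone all 19 fell (8.02% fell and 9.68% rose), with a median of -3.41. With BDNF added to paxillin siRNA, 18 of the 19 fell from DIV5 to DIV10, Sc5d being the exception (log2 change -0.86, adjusted p = 0.103), where 6.13% of all genes fell and 7.22% rose. Earlier, from DIV3 to DIV5 with paxillin siRNA, none of the 19 passed the threshold, against 3.92% of all genes that rose and 1.65% that fell. Summed astrocyte markers at DIV10 were 2840 and 1489 TPM in cultures 1 and 2 and 8758 and 9953 TPM in cultures 10 and 11, and their part in the fall of the cholesterol genes was not tested. Sqle averaged 368 TPM at DIV3 and Srebf2 162 TPM, both inside their DIV5 ranges.

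Inhba, Fst, Frzb, Has3 and Hes5 were among the largest falls outside this pathway. Inhba, the activin subunit, was at 82, 118.6 and 163 TPM in the lowest, median and highest DIV5 library and at 0.353, 0.547, 6.4 and 4.1 TPM at DIV10, and fell by 5.30 ± 0.63 (limma adjusted p = 2.92e-08). Fst, the activin-binding protein follistatin, went from 63.4, 99.7 and 141 TPM to 3.8, 3.32, 3.29 and 4.33 TPM and fell by 4.41 ± 0.56 (adjusted p = 8.41e-08). Both were under their DIV5 range in every late library, Inhba most of all in cultures 1 and 2. Frzb, a secreted Wnt antagonist, fell by 3.32 ± 0.44, Has3, a hyaluronan synthase, by 3.26 ± 0.39, and Hes5, a Notch target of neural progenitors, by 3.27 ± 0.26. Hes5 was at 123, 136 and 151 TPM and then at 7.58, 11.6, 13.6 and 25.1 TPM, with the highest late value in culture 11.

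The 8 largest rises among genes without overlap were those of Mt1, Lcn2, C3, Ptgds, Cd68, Fxyd1, Aebp1 and Rnase1. Mt1, a metallothionein that binds zinc and copper, was at 163, 223 and 267 TPM at DIV5 and at 8718, 6573, 3693 and 2958 TPM at DIV10, and rose by 4.52 ± 0.44, 22.9-fold (limma adjusted p = 6.54e-10). All late libraries were many times above the early ones, with cultures 1 and 2 highest. Its difference from the SC siRNA change was 2.80 ± 0.68 (adjusted p = 0.0197). Lcn2, the iron-siderophore binding lipocalin of inflamed tissue, was at 0, 0.42 and 3.29 TPM and then at 156, 33.9, 58.6 and 444 TPM, with a log2 rise of 6.07 ± 0.97. C3, the central complement protein, went from at most 3.23 TPM to 50.2, 8.1, 108 and 339.8 TPM and rose by 5.13 ± 1.09. Neither Lcn2 nor C3 differed from its SC siRNA change past the threshold (differences 1.67 and 2.47, adjusted p = 0.506 and 0.362). Ptgds, a prostaglandin D synthase, rose by 4.60 ± 0.65, Cd68, a lysosomal protein of phagocytes, by 4.06 ± 0.31, and Fxyd1, a regulator of the sodium pump, by 3.99 ± 0.39. Aebp1, a matrix-associated protein, was at 225 and 287 TPM in cultures 1 and 2 and at 31.7 and 23.9 TPM in cultures 10 and 11, against at most 12.4 TPM at DIV5. Rnase1, a secreted ribonuclease, had the reverse order, at 6.54 and 2.59 TPM and then 189 and 73 TPM, against at most 1.14 TPM at DIV5.

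Genes of the immature neuron fell. Of 20 genes of axon growth and the young neuronal skeleton 18 fell, against 31% of all genes, and none rose. Basp1 and Tmsb10 were not past the threshold, and the median log2 change was -1.50 (17 fell after rescaling). Every DIV10 library was below DIV5 for 15 of them, against 18.3% of all genes tested. Dcx, the microtubule-binding doublecortin of migrating neurons, was at 238, 311 and 414 TPM and then at 31.2, 64.6, 86.1 and 101 TPM, and fell by 2.22 ± 0.25 (limma adjusted p = 7.47e-09). The lowest late value was in culture 1 and the highest in culture 11, and all were under the DIV5 range. Draxin, a chemorepellent of axons, went from 80.3, 131 and 186 TPM to 8.76, 14.8, 22.5 and 21.4 TPM and fell by 2.92 ± 0.29 (adjusted p = 8.24e-10). Sox11, a transcription factor of newborn neurons, fell by 2.50 ± 0.26 from between 883 and 1891 TPM to between 144 and 276 TPM. Under SC siRNA 12 of the 20 fell, against 19.2% of all genes. The changes differed past the threshold for 1, the tubulin gene Tubb2a (-1.49 with paxillin siRNA, difference -1.56, limma adjusted p = 0.0406). Tubb2a was at 359 and 685 TPM in cultures 1 and 2 at DIV10 and at 2123 and 1965 TPM in cultures 10 and 11, against 2511 to 3250 TPM at DIV5.

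Of 17 transcription factors that mark cortical layers and excitatory identity 14 fell, against 31% of all genes, and none rose. The median was -1.10 (13 fell after rescaling). Neurod6, of the bHLH family of pyramidal neurons, was at 578, 1067 and 1353 TPM and then at 30.2, 98.1, 515 and 251 TPM, and fell by 2.75 ± 0.56 (limma adjusted p = 0.000137). Bhlhe22, a bHLH repressor of cortical projection neurons, was at 911, 1429 and 1729 TPM and then at 262, 287, 266 and 239.7 TPM, and fell by 2.36 ± 0.39 (adjusted p = 6.07e-06). Its late values were alike in the 4 cultures, while those of Neurod6 were lower in cultures 1 and 2. Bcl11b, of deep-layer neurons, fell by 1.53 ± 0.45. With cultures 10 and 11 alone 3 of the 17 fell, against 8.02% of all genes.

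Genes of splicing factors were examined because the study concerns splicing, though TPM are per gene and exon inclusion cannot be computed from them. Of 29 genes tested 18 fell and 2 rose, against 31% and 16.3% of all genes, with a median of -0.76 (18 and 3 after rescaling). The summed level of 8 general neuron markers was between 2136 and 3237 TPM at DIV5. At DIV10 it was 508, 927.5, 2434 and 2090 TPM in cultures 1, 2, 10 and 11. Rbfox3 and Elavl4 stand in both lists, and much of the sum is Tubb3, an immature neuron gene given below. The part of neuron content in the splicing factor falls was not tested. Srrm4, the neuronal activator of microexons, was at 9.18, 11 and 16.8 TPM at DIV5 and at 1.24, 3.12, 4.95 and 5.22 TPM at DIV10, and fell by 1.53 ± 0.21 (limma adjusted p = 2.75e-07). Elavl2, a neuronal RNA-binding protein, went from 6.77, 8.17 and 11.4 TPM to 0.898, 2.36, 5.57 and 4.73 TPM and fell by 1.24 ± 0.22 (adjusted p = 2.45e-05). In both genes the late values were lowest in culture 1. The RNA-binding factors Nova2 and Rbfox2 fell by 1.01 ± 0.16 and 1.07 ± 0.14, from 102 to 126 TPM down to 39.1 to 69.1 TPM and from 40.8 to 49.8 TPM down to 17.8 to 26.3 TPM. Ptbp2, the neural polypyrimidine tract-binding protein, fell by 1.16 ± 0.14, and Hnrnpa1, a general repressor of exons, by 1.13 ± 0.13.

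The polypyrimidine tract reader U2af2, a core factor of 3′ splice site recognition, was at 105, 118.9 and 141 TPM at DIV5 and at 134, 124, 117 and 125 TPM at DIV10. These ranges overlapped, and the log2 change of 0.07 ± 0.10 had a limma adjusted p of 0.623. With SC siRNA U2af2 averaged 148 TPM at DIV5 and 107 TPM at DIV10, a fall of 0.47 (adjusted p = 0.00429), and the changes differed by 0.53 ± 0.16 (adjusted p = 0.0391), which did not pass after rescaling (adjusted p = 0.0531). Ptbp1, the non-neuronal polypyrimidine tract-binding protein that represses neuronal exons, was at 92.2, 105 and 128 TPM and then at 273, 201, 137 and 122 TPM. It rose by 0.72 ± 0.18 (adjusted p = 0.000976), with culture 11 inside the DIV5 range and culture 1 highest. With SC siRNA Ptbp1 fell by 0.64 (adjusted p = 0.0217), and the difference between the changes was 1.36 ± 0.27 (adjusted p = 0.00867). Mbnl2, a muscleblind factor of mature exon patterns, rose by 0.91 ± 0.19, from 3.53 to 5.98 TPM up to 7.92 to 11 TPM. Celf5, of the CELF family of RNA-binding factors, had a lower change than with SC siRNA, with 254 to 268 TPM at DIV5, 79.6 to 168 TPM at DIV10 and a difference of -1.02 (adjusted p = 0.0269). Celf2, of the same family, had a difference of -0.92 that passed after rescaling only (adjusted p = 0.0510, and 0.0381 after rescaling). Nova1 was at 3.78, 4.94 and 5.21 TPM and then at 1.3, 3.19, 8.46 and 8.27 TPM, so that cultures 1 and 2 lay under and cultures 10 and 11 over the DIV5 range, and its log2 change of -0.09 did not pass (adjusted p = 0.821) and was 0.03 after rescaling.

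**Figure D3:**
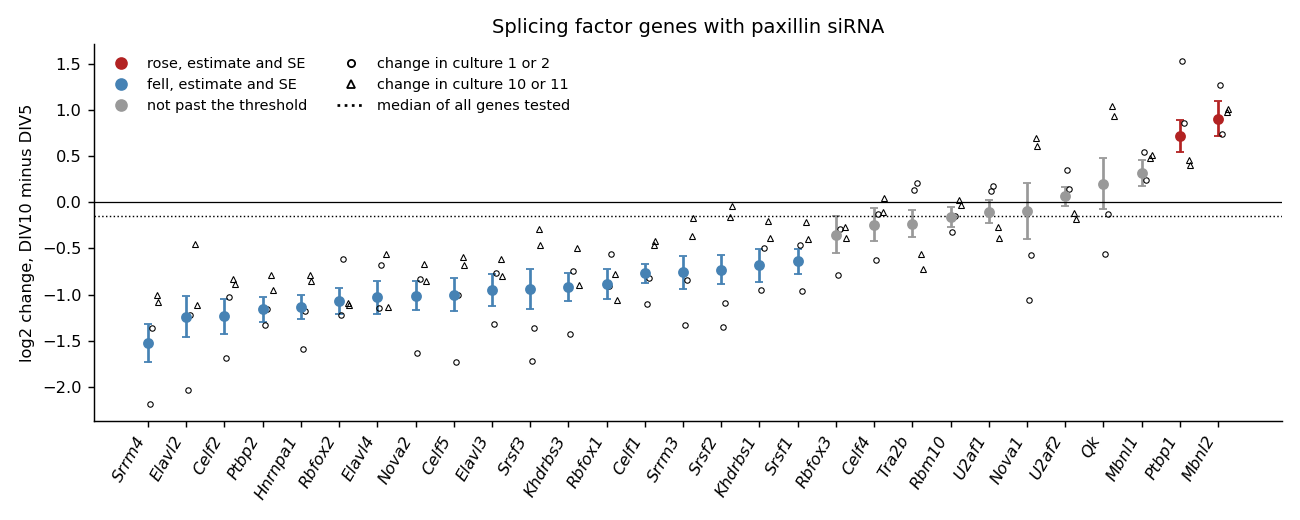
Fitted log2 change from DIV5 to DIV10 with paxillin siRNA of 29 splicing factor genes (points with bars of 1 SE, red for rises, blue for falls, grey for those not past the threshold), with the change within each of 4 cultures as open symbols. The 18 falls run from Srrm4 at -1.53, Ptbp1 and Mbnl2 are the rises, and the dotted line marks the median of all genes at -0.15.

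Receptor genes at excitatory and inhibitory synapses were tested next, in the same libraries with their lower neuron marker sums in cultures 1 and 2 at DIV10. Of 11 NMDA and AMPA receptor subunits Grin2b, Gria2 and Gria4 fell and none rose, with a median of -0.66. That count is no larger a share than the 31% of all genes that fell. Grin2b, the NMDA receptor subunit that dominates early development, was at 18, 27.2 and 42.6 TPM and then at 4.29, 6.05, 12.4 and 15 TPM, and fell by 1.61 ± 0.30 (limma adjusted p = 4.96e-05). Gria2, the AMPA receptor subunit that limits calcium entry, was at 100.4, 129 and 166 TPM and then at 31.1, 52.9, 74.7 and 68.4 TPM. It fell by 1.23 ± 0.22, and with SC siRNA its change was 0.09, a difference of -1.32 ± 0.34 (adjusted p = 0.0236). Grin1, the obligatory NMDA receptor subunit, was at 91.1, 145 and 172 TPM and then at 36.7, 68.3, 167 and 231 TPM. Cultures 1 and 2 were under the DIV5 range and culture 11 over it, and the change of -0.39 ± 0.38 did not pass (adjusted p = 0.416).

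Of 13 GABA-A receptor subunits and chloride transporters 5 fell, with Gabra2, Gabra5 and Gabrb2 among them, none rose and the median was -0.61, a count close to the 31% of all genes that fell. Gabrb2, a beta subunit of the common synaptic receptor, went from 15, 23.7 and 30.2 TPM to 3.93, 7.45, 10.2 and 10.3 TPM and fell by 1.47 ± 0.26 (limma adjusted p = 1.48e-05). Its mean with SC siRNA was 15 TPM at DIV5 and 19.9 TPM at DIV10, and the changes differed by -1.84 ± 0.40 (adjusted p = 0.0116). In cultures 1 and 2 alone 10 of the 13 fell, against 29.7% of all genes, and in cultures 10 and 11 alone 0, against 8.02%.

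Postsynaptic genes divided. Of 18 tested 10 fell and Camk2a and Dlg4 rose, against 31% and 16.3% of all genes, with a median of -0.76. Camk2a, the kinase of mature excitatory spines, was at 33.1, 50.2 and 71.2 TPM and then at 88.4, 80.4, 114 and 185 TPM, and rose by 1.15 ± 0.33 (limma adjusted p = 0.00453). Dlg4, the scaffold PSD-95, was at 226, 282 and 318 TPM and then at 415, 430.1, 364 and 460.4 TPM, and rose by 0.58 ± 0.16 (adjusted p = 0.00321). Both rose also with SC siRNA, by 2.22 and 1.25. Nlgn3, an adhesion protein of the synaptic cleft, fell by 1.49 ± 0.33, from 91.7 to 165 TPM down to 13.1, 30.2, 90.6 and 88.8 TPM. Shank1, a scaffold under the receptors, was at 116 to 207 TPM and then at 16.8, 35.8, 135 and 179 TPM, with only cultures 1 and 2 under the DIV5 range. Its fall of 1.38 was -0.77 without culture 1 at DIV10 and did not pass (adjusted p = 0.129). Grm5, a metabotropic glutamate receptor, fell by 1.37 ± 0.25, from 4.56, 7.74 and 8.63 TPM to 1.03, 1.9, 3.17 and 3.22 TPM.

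Of 24 genes of synaptic vesicle release 8 fell and Vamp2 rose, with a median of -0.34 (7 and 2 after rescaling). The falls were close to the 31% of all genes that fell, and the single rise was under the 16.3% that rose. Unc13a, which primes vesicles, was at 177, 232 and 277 TPM and then at 53.7, 90.1, 152 and 149 TPM, and fell by 1.15 ± 0.23 (limma adjusted p = 0.000133). With SC siRNA its change was 0.21, and the difference was -1.36 ± 0.36 (adjusted p = 0.0269). Slc17a6, the vesicular glutamate transporter of early development, fell by 1.46 ± 0.40, from 11.6 to 26.6 TPM down to 6.49, 10.9, 2.92 and 4.71 TPM. Snap25, a SNARE protein, was at 30.9, 35.6 and 47.6 TPM and then at 28.2, 47.4, 50.9 and 58 TPM, with culture 1 lowest, and its change of 0.24 ± 0.19 did not pass (adjusted p = 0.315). Vamp2, the vesicle SNARE, rose by 0.48 ± 0.20 (adjusted p = 0.0402), and without culture 11 at DIV10 its change was 0.30 (adjusted p = 0.227).

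Of 23 voltage-gated sodium and potassium channel genes 10 fell and 3 rose, against 31% and 16.3% of all genes, with a median of -0.55 (7 and 5 after rescaling). Scn3a, the sodium channel of the embryonic brain, was at 21.8, 24.4 and 30 TPM and then at 5.81, 8.67, 10.1 and 10.6 TPM, and fell by 1.44 ± 0.17 (limma adjusted p = 2.05e-08). Kcnv1, a silent subunit of potassium channels, was at 32, 52.2 and 62.3 TPM and then at 1.36, 3.82, 34.3 and 27.5 TPM, so that cultures 1 and 2 were far under it while culture 10 was inside the early range, and it fell by 2.25 ± 0.53. Kcnj9, a G protein-gated potassium channel, rose by 1.02 ± 0.29. The changes of 6 of the 23 were lower than with SC siRNA, against 2.16% of all genes tested. With SC siRNA none of the 23 fell and 7 rose, against 19.2% and 5.75% of all genes. The count of 6 ran from 1 to 10 when single libraries were left out. It was 0 when the spread was estimated from the 4 groups alone. Among genes of the axon initial segment, nodes and perineuronal matrix 9 of 18 fell and none rose, against 31% and 16.3% of all genes. Their median was -0.79, with 1 rise after rescaling. In cultures 1 and 2 alone 11 fell, against 29.7% of all genes. In cultures 10 and 11 alone 4 fell and 1 rose, against 8.02% and 9.68%. Ank3, the ankyrin that builds the initial segment, went from 28.4, 36.4 and 40.5 TPM to 7, 11.8, 19.6 and 18.7 TPM and fell by 1.34 ± 0.24. Ank2, its counterpart along the axon, fell by 1.09 ± 0.29, with cultures 10 and 11 (39.7 and 37.5 TPM) inside the DIV5 range of 36.3 to 66.7 TPM. Cntn2, an axonal adhesion protein, fell by 2.34 ± 0.27 and Ncan, the matrix protein neurocan, by 1.90 ± 0.25.

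Among 19 activity-regulated genes 4 rose and 3 fell, with a median of 0.29 (5 and 2 after rescaling). The rises were close to the 16.3% of all genes that rose, and the falls were fewer than the 31% that fell. Junb, an immediate early transcription factor, was at 34.9, 62.2 and 91.8 TPM and then at 805, 322, 124 and 265 TPM, and rose by 2.40 ± 0.44 (limma adjusted p = 3.09e-05). Egr4, Arc and Fos rose by 1.95, 1.83 and 1.67, Arc most in cultures 10 and 11 (48.1 and 96.6 TPM against at most 12.9 TPM at DIV5). Scg2, a granin of dense-core vesicles, was at 621, 785 and 1124 TPM and then at 126, 210.0, 769 and 539.9 TPM, and its fall of 1.27 had an adjusted p of 0.0499 (0.0845 after rescaling). Without culture 1 at DIV10 it was -0.82 (adjusted p = 0.269).

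Genes of microglia rose. All 10 tested markers passed the threshold upward, against 16.3% of all genes, with a median log2 change of 3.19, and their summed level went from between 51.0 and 127 TPM at DIV5 to 392, 459, 1415 and 2600.5 TPM in cultures 1, 2, 10 and 11. Tyrobp, the signalling adaptor of microglial receptors, was at 0.73, 1.69 and 3.23 TPM and then at 16.6, 13.7, 51.2 and 72.3 TPM, and rose by 3.47 ± 0.35 (limma adjusted p = 1.29e-09). C1qb, a chain of the complement starter C1q, was at 6.45, 14.8 and 16.6 TPM and then at 50.5, 71, 231 and 423 TPM, and rose by 3.43 ± 0.46. In both genes cultures 10 and 11 were several times above cultures 1 and 2, and all late libraries were above the early ones. With SC siRNA 9 of the 10 rose, against 5.75% of all genes, and the change of none differed past the threshold.

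Markers of myelinating oligodendrocytes were at their highest at DIV10 in cultures 10 and 11. Over all libraries 7 of 11 rose (16.3% of all genes rose), Mog fell and the median was 2.11. The summed level was between 62.6 and 298 TPM at DIV5 and was 170 and 571 TPM in cultures 1 and 2 and 2262 and 2593 TPM in cultures 10 and 11. Mbp, the basic protein of myelin, was at 2.22, 17.4 and 43.7 TPM and then at 30.7, 57.4, 316 and 406 TPM, and rose by 3.24 ± 0.73 (limma adjusted p = 0.000423). Culture 1 at DIV10 was inside the DIV5 range. Mobp, a myelin protein of late maturation, went from 0.0175, 0.81 and 4.89 TPM to 5.65, 3.27, 107 and 181 TPM and rose by 3.84 ± 0.85, and Cldn11, the tight junction protein of myelin, by 3.59 ± 0.88. Mog was at 10.1, 15.2 and 23.2 TPM and then at 4.12, 6.55, 8.64 and 10.9 TPM, and its log2 change, 2-fold downward in the fit of all libraries, was -0.78 without culture 1 at DIV10 (adjusted p = 0.0675). With cultures 1 and 2 alone 0 of the 11 rose and 1 fell, against 14.3% and 29.7% of all genes. With cultures 10 and 11 alone 9 rose, against 9.68% of all genes. Of 9 markers of oligodendrocyte precursors none passed the threshold over all libraries (median -0.07). Pdgfra, the growth factor receptor that defines them, was at 56.6 to 149 TPM at DIV5 and at 2.04, 10.6, 189 and 204 TPM at DIV10.

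Astrocyte markers were also highest at DIV10 in cultures 10 and 11. Of 14 tested 5 rose (16.3% of all genes rose) and Fgfr3 fell, with a median of 0.92 (6 and 1 after rescaling), and their sum went from between 1423 and 2461 TPM to 2840, 1489, 8758 and 9953 TPM. Gja1, the gap junction protein connexin 43, was at 34.6, 88.8 and 146 TPM and then at 181, 173, 934 and 661 TPM, and rose by 2.12 ± 0.63 (limma adjusted p = 0.00546). Gfap, the intermediate filament of astrocytes, was at 119.7, 611 and 1214 TPM and then at 707, 455, 4288 and 5459 TPM. Cultures 1 and 2 lay inside the early range and cultures 10 and 11 well above it, and the change of 1.77 ± 1.16 did not pass (adjusted p = 0.209). Aqp4, the water channel of astrocyte endfeet, was at 9.63 and 7.07 TPM in cultures 1 and 2 and at 421 and 483 TPM in cultures 10 and 11, against 38.5 to 193 TPM at DIV5. S100b, a calcium-binding protein, rose by 1.86 ± 0.77 (adjusted p = 0.0433), and without culture 11 at DIV10 it was at 1.50 (adjusted p = 0.136).

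**Figure D4:**
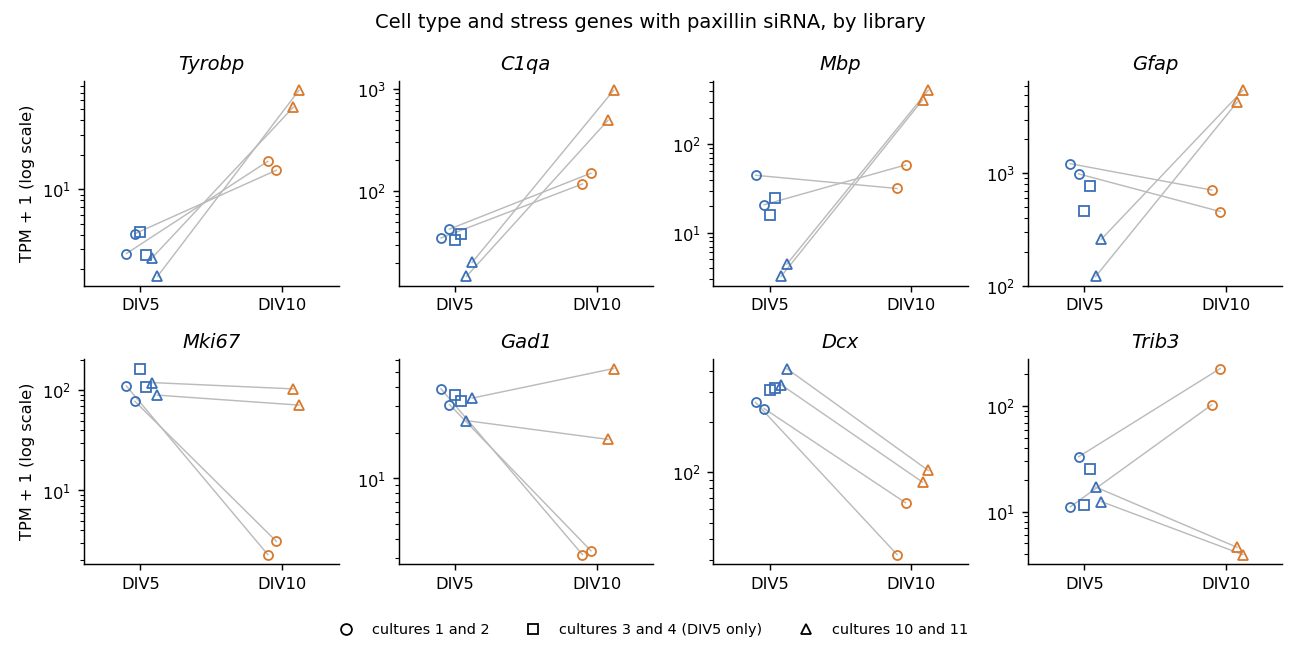
TPM + 1 on a log axis of 8 cell type and stress genes in the 6 DIV5 (blue) and 4 DIV10 (orange) paxillin siRNA libraries, with grey lines joining the libraries of a culture and marker shapes for culture pairs. Tyrobp and C1qa are higher in all 4 DIV10 libraries, while at DIV10 cultures 1 and 2 have the lowest Mki67 and Gad1 and the highest Trib3 values.

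Genes of dividing cells fell in the fit of all libraries. Of 25 cell cycle genes 20 fell (31% of all genes fell) and none rose, with a median of -1.11 (19 fell after rescaling). Mki67, the proliferation marker, was at 76.9, 109 and 164 TPM and then at 1.28, 2.1, 103 and 70.3 TPM, and fell by 2.85 ± 0.71 (limma adjusted p = 0.00127). Top2a, the topoisomerase of mitosis, was at 39.1, 55.5 and 92.6 TPM and then at 1.25, 1.3, 43.9 and 28.5 TPM. In both genes culture 10 was inside the early range while cultures 1 and 2 were far under it. Cultures 1 and 2 alone gave 21 falls and cultures 10 and 11 alone gave 0, against 29.7% and 8.02% of all genes. With SC siRNA 21 of the 25 fell, against 19.2% of all genes. The changes differed past the threshold for 1, the replication helicase gene Mcm2 (difference 1.11, limma adjusted p = 0.0191). Of 12 neural progenitor markers 5 fell and Vim and Pax6 rose, against 31% and 16.3% of all genes, with a median of -1.04. The rises were thus close to the share of all genes. Insm1, a factor of intermediate progenitors and newborn neurons, fell by 2.57 ± 0.42, from 132 to 388 TPM down to 13.3, 14.2, 76.6 and 101 TPM. Vim, an intermediate filament shared by progenitors and astrocytes, was at 177 and 94.6 TPM in cultures 1 and 2 and at 1175 and 1150 TPM in cultures 10 and 11, against 97.1 to 156 TPM at DIV5.

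Interneuron markers had a median of -1.68, with 8 of 13 falling (31% of all genes fell) and none rising (7 fell after rescaling). Their summed level was between 883 and 1510 TPM at DIV5 and was 93.5, 107, 682 and 1669 TPM at DIV10. With SC siRNA the sum was between 1530 and 2551 TPM at DIV5. At DIV10 it was 2269, 306 and 2025 TPM in cultures 1, 3 and 6 of SC siRNA. There 2 of the 13 fell (19.2% of all genes fell), and the change of none differed between the siRNAs past the threshold. Dlx2, a homeobox factor of interneuron precursors, was at 126, 272 and 353 TPM and then at 12.2, 10.6, 81.7 and 220.1 TPM, and fell by 2.62 ± 0.66 (limma adjusted p = 0.00142). Gad1, the enzyme that makes GABA, was at 23, 32 and 37.8 TPM and then at 2.17, 2.35, 17.1 and 51.7 TPM, with culture 11 above the early range. Lhx6, of interneurons from the medial ganglionic eminence, fell by 2.52 ± 0.40, and its late values of 0.929, 0.538, 3.79 and 6.72 TPM were all under the early ones. The count of 8 fell to 2 without culture 1 or without culture 2 at DIV10, and to 1 with cultures 10 and 11 alone (8.02% of all genes). It fell to 2 when the spread was estimated from the groups compared alone. Of 8 general neuron markers 4 fell and none rose (median -0.81), against 31% and 16.3% of all genes. In cultures 1 and 2 alone 5 fell, against 29.7% of all genes, and in cultures 10 and 11 alone 2, against 8.02%. None of the 8 markers was at 0 in any of the 10 libraries. At DIV10 their sum was lower in cultures 1 and 2 than in cultures 10 and 11. Tubb3, neuronal tubulin, fell by 2.01 ± 0.31, from 1142 to 2241 TPM down to 178, 269.9, 833 and 695 TPM, and Map2, of dendrites, by 1.13 ± 0.30.

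The amino acid stress response, the set of genes driven by ATF4 when amino acids run short, differed in direction among its genes and between the culture pairs. Against DIV5 in the same culture, 8 of the 20 genes were lower at DIV10 in all 4 cultures, 7 were higher in cultures 1 and 2 and lower in cultures 10 and 11, and 1 was higher in all 4. Over all 14250 genes tested these counts were 4667, 1087 and 2809, so the 8 lower in all 4 are close to the share of all genes. Over all libraries 7 of 20 fell (31% of all genes fell) and Slc7a11 rose, with a median of -0.40 (3 and 3 after rescaling). Their summed level at DIV10 was 7299, 7791, 2367 and 2049 TPM in cultures 1, 2, 10 and 11. With SC siRNA it was 1618, 3949 and 1736 TPM in cultures 1, 3 and 6, and the change of none of the 20 differed past the threshold. Trib3, a pseudokinase of this response, was at 10.1, 13.8 and 32.2 TPM and then at 102, 226, 3.58 and 2.91 TPM. Ddit3, the factor CHOP, was at 54.8, 77.6 and 149 TPM and then at 479, 597, 66.9 and 60.4 TPM. For Trib3 cultures 1 and 2 lay above and cultures 10 and 11 below the whole early range, and neither gene passed over all libraries (log2 changes 0.59 and 1.10, limma adjusted p = 0.599 and 0.0713). With cultures 1 and 2 alone 5 of the 20 rose and 1 fell, against 14.3% and 29.7% of all genes. With cultures 10 and 11 alone 7 fell and none rose, against 8.02% and 9.68%. Slc7a5, the leucine transporter, fell by 1.19 ± 0.33 and Slc7a1, the arginine transporter, by 1.14 ± 0.26. Slc7a11, the cystine transporter, was at 1.75, 2.44 and 3.34 TPM and then at 4.52, 30.9, 3.9 and 3.74 TPM, and without culture 2 at DIV10 its change was 0.53 and did not pass (adjusted p = 0.188). From DIV3 to DIV5 with paxillin siRNA 13 of the 20 had risen, against 3.92% of all genes.

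Of 14 interferon and antigen presentation genes 6 rose (16.3% of all genes rose) and none fell, with a median of 1.03. Ifit3, an interferon-induced antiviral protein, was at 0.742, 1.35 and 2.98 TPM and then at 32.5, 9.68, 10.8 and 8.61 TPM, and rose by 2.49 ± 0.55 (limma adjusted p = 0.000325). Every late library was above the early ones, and culture 1 was the highest. B2m, the light chain of MHC class I, was at 33.8, 87.3 and 172 TPM and then at 506, 289, 264 and 286 TPM, and rose by 2.03 ± 0.57. Bst2, or tetherin, rose by 2.20 ± 0.80 (adjusted p = 0.0223), and without culture 1 at DIV10 its change was 1.90 (adjusted p = 0.0867). With SC siRNA none of the 14 passed the threshold (5.75% of all genes rose and 19.2% fell), and no difference between the changes did.

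Among 23 genes of the paxillin family and of focal adhesions 8 rose and 5 fell, against 16.3% and 31% of all genes, with a median of 0.11 (9 and 2 after rescaling). Itga5, the fibronectin receptor subunit, was at 0.739, 2.17 and 3.44 TPM and then at 4.26, 10.1, 7.36 and 8.73 TPM, and rose by 1.50 ± 0.27 (limma adjusted p = 2.62e-05). Itgb5, a vitronectin receptor subunit, was at 2.35, 3.54 and 4.67 TPM and then at 10.7, 6.1, 16.1 and 15 TPM, and rose by 1.44 ± 0.25. In both the early and late libraries did not overlap. Tln1, the talin that switches integrins on, was at 25.7, 29.9 and 32.2 TPM and then at 65, 50, 71.5 and 76.5 TPM, and rose by 1.12 ± 0.19 (adjusted p = 1.03e-05). With SC siRNA Tln1 averaged 57.9 and 52 TPM, and the difference between the changes was 1.21 ± 0.29 (adjusted p = 0.0197). Arhgef7, a Rac exchange factor bound to the paxillin partner Git1, fell by 0.86 ± 0.13, from 43.9 to 50 TPM down to 17.3 to 32 TPM. Itga3, a laminin receptor subunit, fell by 0.99 ± 0.29, with culture 2 at DIV10 (20.8 TPM) inside the early range. Zyx, a LIM protein of adhesions, was at 41.4 to 57.7 TPM and then at 91.7, 231, 45.6 and 45.4 TPM, high in cultures 1 and 2 only, and rose by 0.71 ± 0.24 (adjusted p = 0.0156).

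Other genes that the study names were Ntrk2, Cdk5 and Tnpo1. Ntrk2, the receptor of BDNF, was at 28.3, 42.9 and 55 TPM and then at 54.9, 25.2, 99.5 and 80.8 TPM, with cultures 10 and 11 above and culture 2 below the early range. Its log2 change of 0.46 ± 0.28 did not pass (limma adjusted p = 0.179), and without culture 2 at DIV10 it was 0.85 and did (adjusted p = 0.0114). Cdk5, a kinase of postmitotic neurons, was at 39.8, 49.3 and 55.7 TPM and then at 26.5, 35.5, 50.8 and 48.3 TPM. Its fall of 0.31 ± 0.13 had an adjusted p of 0.0433, and it was -0.13 without culture 1 at DIV10 (adjusted p = 0.428) and -0.14 after rescaling (adjusted p = 0.392). Tnpo1, an importin of RNA-binding proteins, had overlapping values and a change of -0.21 (adjusted p = 0.244).

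Markers of blood and vessel cells were examined as a check on the tissue. Of 7 endothelial markers 2 passed the filter on low values and neither was past the threshold, nor was any of 4 red blood cell markers. Of 9 mural cell and fibroblast markers Pdgfrb, a receptor of pericytes, rose 2.46-fold (limma adjusted p = 0.00285), from 3.36 to 10.3 TPM up to 13.2, 10.5, 27.7 and 17 TPM, and the median of the 9 was 0.03.

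The medians of the lists within each culture place these results side by side. In the column headers, cultures 1 and 2 carry consecutive library numbers that lie apart from those of cultures 10 and 11. The numbers of cultures 10 and 11 also lie apart from each other. The median of all genes was -0.29, -0.15, -0.03 and -0.05 in cultures 1, 2, 10 and 11. Cholesterol synthesis was at -2.38 and -1.95 in cultures 1 and 2 and at -3.65 and -3.17 in cultures 10 and 11. Microglial markers were above 0 and the immature neuron genes below 0 in all 4. Other lists also kept their side of 0 in all 4, such as splicing factors and cell cycle genes below it and interferon genes above it. Interneuron, oligodendrocyte precursor and astrocyte medians lay further down in cultures 1 and 2 than in cultures 10 and 11. The part of cell composition and of the amino acid stress genes in the falls of neuronal and synaptic genes in cultures 1 and 2 was not tested. In those cultures the size factors at DIV10 were 0.785 and 0.898, against 0.991 and 0.968 in cultures 10 and 11.

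**Figure D5:**
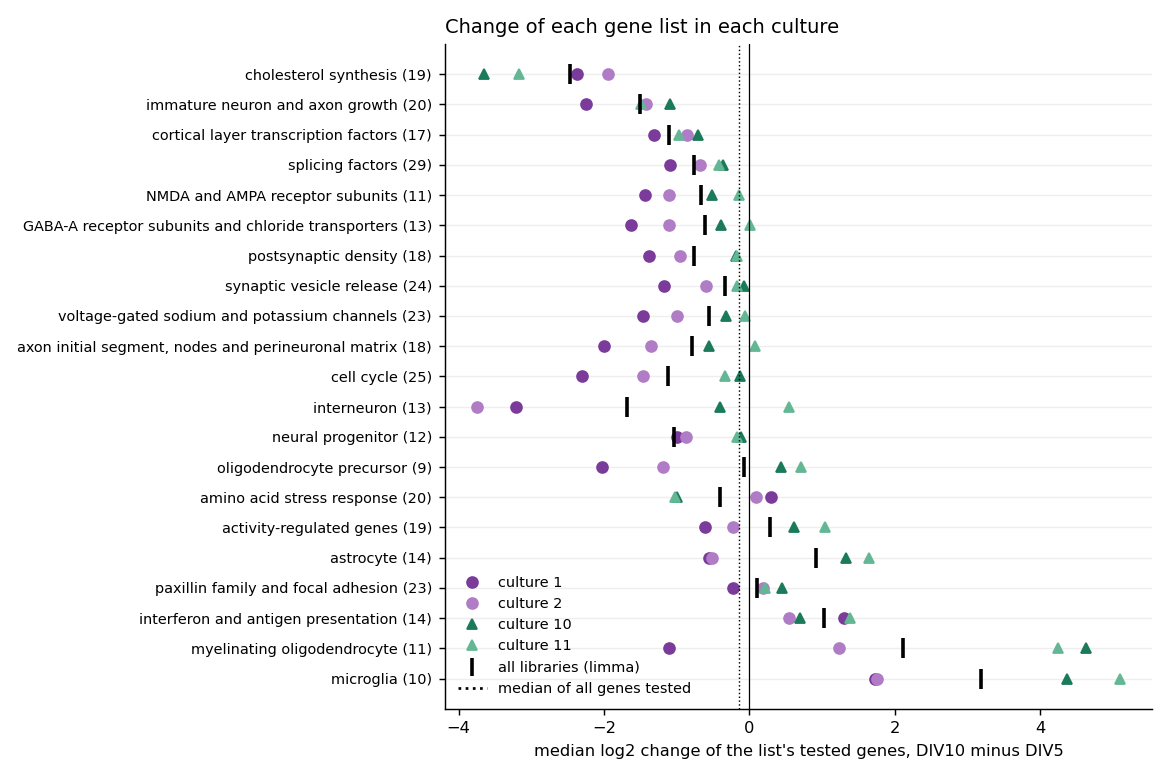
Median log2 change from DIV5 to DIV10 of the tested genes of 21 lists (number of genes in brackets) within cultures 1 and 2 (purple circles) and 10 and 11 (green triangles), with black bars for the fit of all libraries and a dotted line at the all-gene median of -0.15. Cholesterol synthesis, immature neuron and microglial medians keep their side of 0 in all 4 cultures. So do those of other lists, such as cortical layer transcription factors, splicing factors, cell cycle and interferon genes. Interneuron, oligodendrocyte precursor, astrocyte and amino acid stress medians lie apart between the pairs.

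The change from DIV5 to DIV10 with paxillin siRNA differed from that with SC siRNA for 821 genes, 513 higher and 308 lower. The most negative differences were of Inhba (-3.17 ± 0.98, limma adjusted p = 0.0462), Fst (-2.93 ± 0.86, adjusted p = 0.0387) and Kcnv1 (-2.74 ± 0.82, adjusted p = 0.0422). With SC siRNA the means of Inhba and Fst were 43.7 and 37 TPM at DIV5 and 5.57 and 5.72 TPM at DIV10. The most positive differences were of Angptl4, a secreted inhibitor of lipoprotein lipase (3.44 ± 1.02, adjusted p = 0.0394), Rnase1 (3.35 ± 0.98, adjusted p = 0.0386), the interferon-induced GTPase Gbp6 (3.16 ± 0.88, adjusted p = 0.0326) and Cntf. Cntf, a neurotrophic cytokine, was at 3.27, 5.31 and 7.52 TPM and then at 30.2, 150.0, 54.4 and 40.5 TPM, and rose by 3.21 ± 0.35. Its means with SC siRNA were 6.23 and 7.96 TPM, and the difference was 2.94 ± 0.55 (adjusted p = 0.00626). Gbp6 was at 0.426, 1.02 and 2.47 TPM and then at 34.5, 10.4, 9.5 and 10.6 TPM, highest in culture 1, while Angptl4 was at 0.427 to 3.07 TPM and then at 4 to 10.3 TPM. Angptl4 had averaged 23.3 TPM with SC siRNA at DIV5 and 2.53 TPM at DIV10. Of the genes named here for their difference, Cntf passed the threshold with any single library left out, and Inhba, Fst, Kcnv1, Angptl4, Rnase1 and Gbp6 did not. The count of 821 was 102 without culture 4 of SC siRNA at DIV5 and 2012 without culture 3 of SC siRNA at DIV10, and it was 0 when the spread was estimated from the 4 groups alone (2509 genes at an unadjusted p under 0.05).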

How the data were processed

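RNA was sequenced from 48 cortical libraries, 46 of cultures and 2 of embryonic cortex. The authors deposited 1 table of TPM per gene, made from their paired-end reads, with STAR 2.7.10 and RSEM 1.3.3 named in the submitters' processing notes. The reference genome for coordinates and promoters here was GRCm38.p6. No counts were used, so depth and counting error are unknown here. A table of 12 hippocampal long-read libraries was not used here.

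A gene was tested where its TPM averaged 1 or more across the 48 libraries (14250 of 39756), and log2(TPM + 1) was fitted with 1 mean per group in limma 3.58.1 (R 4.3.3), with Benjamini-Hochberg adjusted p-values called under 0.05. Fold changes on that scale understate the change of low genes. Groups came from the labels. The members and the gene lists were chosen with earlier results of these data known. Genes were named by a rule: Pxn, genes the paper names, the 8 largest rises and falls without overlap and with 1 sign in the 4 shared cultures, up to 2 rises and 2 falls per list, and the 4 largest differences from SC siRNA each way. Others named, such as Trib3, Ddit3, Gfap, Aqp4, Pdgfra, Mbp, Gad1, Dcx, Tln1, Zyx, B2m and Mcm2, were chosen after their values were seen. Some genes of the lists and of this rule are counted but not reported here by name. Of 418 list symbols 13, all mitochondrially encoded, were not analysed here. The procedure was checked on simulated data. Alternatives were a pseudocount of 0.1, no filter, median ratio rescaling, only the groups compared, the culture number as a block, culture subsets and leaving out each library, and counts of list members under these were added after the data were seen. Scripts used Python 3.11.15 with numpy 2.4.6, pandas 2.3.3 and matplotlib 3.10.9.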

Additional observations from a re-analysis of the deposited data

Results flagged for a closer look

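Of 174 groups of libraries looked at for 87 named genes, 8 had a library far from the others by Dixon's test, which chance gives in about 1 in 20 groups. At DIV5, Grm5 was at 4.56 TPM in culture 3 (7.23 to 8.63 TPM in the others), Ncan at 517 TPM in culture 3 (789 to 1005 TPM), Nova1 at 3.78 TPM in culture 1 (4.66 to 5.21 TPM) and Dlx2 at 126 TPM in culture 10 (244 to 353 TPM). At DIV10, culture 1 stood apart for Frzb, at 1.05 TPM (1.77 to 1.87 TPM), Ifit3, at 32.5 TPM (8.61 to 10.8 TPM), and Gbp6, at 34.5 TPM (9.50 to 10.6 TPM). Slc7a11 was at 30.9 TPM in culture 2 at DIV10 (3.74 to 4.52 TPM).

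The difference between the changes with paxillin siRNA and SC siRNA was tested as an interaction and passed the threshold for 821 genes, 14 cholesterol synthesis genes among them. The most negative were Inhba (-3.17), Fst (-2.93) and Kcnv1 (-2.74), and the most positive Angptl4 (3.44), Rnase1 (3.35), Gbp6 (3.16) and Cntf (2.94), all on the log2 scale.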

How the results depend on the processing

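The 6732 changed genes became 2522 with cultures 10 and 11 alone, 5110 with only the groups compared, and between 5205 and 7043 with 1 library left out. The 821 differences from SC siRNA became 517 with no filter, 3438 with cultures 1 and 2 alone, 128 with cultures 10 and 11 alone, 0 with only the groups compared and between 102 and 2012 with 1 library left out. Single libraries that moved the count by over 1.5 times were cultures 1 (137), 3 (2012) and 6 (207) of SC siRNA at DIV10, cultures 2 (108), 3 (1655) and 4 (102) of SC siRNA at DIV5, cultures 1 (235), 2 (442), 10 (1677) and 11 (1644) of paxillin siRNA at DIV10, and cultures 1 (369), 2 (432) and 10 (527) of paxillin siRNA at DIV5. The cause was not tested.

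Gene changes that turned sign were those of Grin1 (0.34 with cultures 10 and 11 alone, and -0.79 to 0.082 with 1 library left out, positive without culture 1 at DIV10), Nova1 (0.029 after rescaling, 0.66 with cultures 10 and 11 alone, and -0.36 to 0.32 with 1 library left out, positive without culture 1 or 2 at DIV10), U2af2 (-0.15), Cdk5 (0.030) and Fgfr3 (0.078), each with cultures 10 and 11 alone, and Ntrk2 (-0.070) and Tnpo1 (0.086) with cultures 1 and 2 alone. Among these, Cdk5 and Fgfr3 had passed the threshold. Over the named genes and list counts under all alternatives, 1755 values kept their direction and side of the threshold, or a count within 1.5 times, 208 lost the threshold, 2 gained it and 32 counts moved further.

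With the culture number as a replicate block, 8315 genes changed and 1837 differed from SC siRNA, and in a block fit of only the groups compared 3202 changed and 0 differed (2352 at an unadjusted p under 0.05). That last fit took the cell cycle falls from 20 to 2 (15 at an unadjusted p under 0.05), the interneuron falls from 8 to 1 (3) and the myelinating oligodendrocyte rises from 7 to 0 (6), and left 18 cholesterol synthesis falls and 9 microglial rises. For Pxn an exact sign-flip permutation test over the 4 cultures as a block gave 0.58 (p = 0.125, the smallest it can give). Same-numbered deviations correlated at -0.02, 0.13, 0.32 and 0.24 in cultures 1, 2, 10 and 11. The DIV10 deviations of cultures 10 and 11 correlated best with their own number at DIV5, and those of cultures 1 and 2 did not. Whether a number marks the same culture on both days cannot be settled from these few values.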
